A study of Rattus norvegicus with 8 samples.

Results

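The heat shock proteins and their J-domain partners (DnaJ proteins) are the chaperones that fold, refold and hand over proteins in every compartment of the cell. They were taken here as the genes of the deposited table whose symbol begins with Hsp followed by a digit or by a, b, d, e or h, with Dnaja, Dnajb or Dnajc and a number, or with Cct and a number, together with Tcp1. The rule, which uses symbols and no measured value, found 67 of the 10692 listed genes. Each was placed by its known main location, which gave 31 genes of the cytosol, 13 of the endoplasmic reticulum (ER), 9 of mitochondria, 7 of the nucleus and ribosome, 3 of vesicles and endosomes, and 4 others. Of the 87 protein-coding symbols that the rule matches in the RefSeq gene table (assembly GRCr8), 66 were rows. The 67th row carried the symbol Hspb11, an older name of a ciliary transport protein that is outside the chaperone cycle. The inducible HSP70 genes Hspa1a and Hspa1b, the constitutive HSP90 gene Hsp90ab1, and Dnaja1 and Dnajb1 were not analysed here.

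mRNA was sequenced from islet cells of neonatal Sprague Dawley rats aged 10 days, before the insulin-producing beta cells have matured. Islets were dissociated into single cells, cultured and transfected by lipofection. In 4 libraries the cells had received 60 pmol of a scrambled control LNA (locked nucleic acid, a stabilised oligonucleotide), and in 4 they had received 3 LNA inhibitors at 20 pmol each, 60 pmol in total. The inhibitors target tiRNA-5 HisGTG, GluCTC and GluTTC, which are the 5′ pieces of tRNAs cut in the anticodon loop. The comparison asks which mRNAs differ when these fragments are inhibited, and the fragments themselves were not measured in these values. The controls thus went through dissociation, culture and lipofection as well. Separate animals or cultures are not stated for the libraries of a group, and a p-value here refers to library spread, which may be technical.

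A beta cell makes proinsulin in the ER, where the HSP70 protein BiP and the HSP90 protein GRP94 bind unfolded chains, and J-domain proteins deliver substrates to BiP and start its ATP cycle. The cytosol has its own HSP70, HSP90 and J-domain proteins, small heat shock proteins that hold unfolded proteins without using ATP, and the ring-shaped chaperonin CCT, which folds actin and tubulin. Mitochondria use an HSP70 to pull proteins in and a barrel of HSP60 with a lid of HSP10 to fold them. When unfolded protein builds up, the ER raises its chaperones through a promoter sequence called the ER stress response element, and the cytosol raises its own through heat shock factor 1, which binds heat shock elements.

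Promoters of 5 members are shown because they hold these elements. They belong to the 3 most abundant ER genes, the mitochondrial barrel gene and a cytosolic HSP110 gene. Each is the 250 bases before the annotated start in RefSeq (build GRCr8, a different build from the rn6 of the authors' processing), written 5′ to 3′ on the strand of the gene. The capitals mark the ER stress response element (CCAAT, any 9 bases, then CCACG, on either strand) in the ER genes, and the triplet heat shock element (TTC, GAA and TTC with any 2 bases between neighbours, on either strand) in the others.
Hspa5 (BiP; chr3:38452766-38453015, plus strand): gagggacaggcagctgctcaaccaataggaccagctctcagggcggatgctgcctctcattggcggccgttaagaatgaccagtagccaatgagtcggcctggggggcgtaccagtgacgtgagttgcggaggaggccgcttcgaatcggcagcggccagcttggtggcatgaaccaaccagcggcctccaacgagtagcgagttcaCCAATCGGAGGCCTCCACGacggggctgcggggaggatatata
Hsp90b1 (GRP94; chr7:23012294-23012543, minus strand): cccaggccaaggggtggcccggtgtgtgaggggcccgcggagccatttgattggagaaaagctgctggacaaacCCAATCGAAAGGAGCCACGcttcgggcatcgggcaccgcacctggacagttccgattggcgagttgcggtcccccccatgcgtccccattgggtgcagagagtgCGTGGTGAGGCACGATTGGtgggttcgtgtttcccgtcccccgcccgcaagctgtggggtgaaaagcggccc
Dnajc3 (chr15:102432417-102432666, plus strand): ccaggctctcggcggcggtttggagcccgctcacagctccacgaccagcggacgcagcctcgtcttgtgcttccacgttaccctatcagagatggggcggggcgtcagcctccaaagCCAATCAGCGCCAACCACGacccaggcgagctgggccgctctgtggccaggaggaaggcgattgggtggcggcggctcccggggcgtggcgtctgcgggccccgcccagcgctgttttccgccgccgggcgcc
Hspd1 (HSP60; chr9:64084038-64084287, minus strand): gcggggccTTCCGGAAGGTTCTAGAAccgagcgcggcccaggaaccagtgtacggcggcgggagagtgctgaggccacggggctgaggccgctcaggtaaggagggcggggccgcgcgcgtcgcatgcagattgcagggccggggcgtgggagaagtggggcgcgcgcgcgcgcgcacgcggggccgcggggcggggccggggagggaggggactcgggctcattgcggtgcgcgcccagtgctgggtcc
Hsph1 (HSP110; chr12:10427118-10427367, plus strand): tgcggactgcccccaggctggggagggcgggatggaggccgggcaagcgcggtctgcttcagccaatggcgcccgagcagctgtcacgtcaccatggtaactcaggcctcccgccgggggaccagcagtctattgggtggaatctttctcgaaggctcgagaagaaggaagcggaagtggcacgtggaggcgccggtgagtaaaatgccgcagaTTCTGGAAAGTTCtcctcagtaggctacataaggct

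A promoter was found for 55 of the 67 genes. The ER stress response element stood in 3 of the 55, which were Hspa5, Hsp90b1 and Dnajc3, and in 0.0657% of all 33469 promoters of the same length. Hsp90b1 held 2 copies. The triplet heat shock element stood in 4 of the 55, namely Hspd1, Hspe1, Hsph1 and Hspa8, against 0.663% of all promoters. Hspd1 and Hspe1 are transcribed in opposite directions and their windows share 211 bases, so the same pair of overlapping triplets is counted for both. The shorter pair of units (GAANNTTC, contained in every triplet) stood in 10 of the 55 and in 7.23% of all promoters. A match describes the letters only.

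Reads in the listed genes, recovered from the steps of the RPKM values (reads scaled to gene length and library size), came to between 16035607 and 19049788 per library, and the members had from 35 to 81541 reads each. The 7 beta-cell markers were all listed. Their sum of 158654 to 254759 RPKM, led by Ins1 and Ins2, stood far above those of the other cell types. Pdx1, Nkx6-1 and Mafa alone stood between 19.4 and 105 RPKM. The libraries differed in ways the groups do not explain. In inhibitor 4 the Y-linked genes Eif2s3y and Kdm5d stood at 0.257 and 0.12 RPKM. In the other libraries they stood at 6.86 to 18.8 and at 2.77 to 8.73 RPKM. The Y-linked genes Uty and Ddx3y were at 16.5 and 1.42 RPKM in inhibitor 4. In the others these 2 genes were at 10.9 to 13.5 and at 0.909 to 1.39 RPKM. Inhibitor 4 also had the lowest beta-cell marker sum (158654 RPKM) and the highest alpha-cell marker sum (9773 RPKM), and control 1 had the lowest sum of the 5 listed mesenchymal markers (1507 RPKM). Results that rest on control 1 or inhibitor 4 are given below with and without both. For a gene highest in inhibitor 4 or lowest in control 1, leaving out that library lowers the inhibitor less control difference by construction. In these mixed cells, fewer cells of a type and less mRNA per cell cannot be told apart.

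Of the listed members' summed RPKM, the ER genes took the largest share. Summed over their genes and averaged over 8 libraries, the 13 ER members took 58.3% of the RPKM of all 67, the 31 cytosolic members 24.9%, and the 9 mitochondrial members 11.1%. The nucleus and ribosome took 2.79%, and vesicles and endosomes 1.96%. By mean RPKM Hspa5 ranked 6 and Hsp90b1 ranked 28 of all 10692 listed genes. RPKM is per length, but levels of genes with near-identical copies, given below, are uncertain. The cytosolic sum counts Hspa8 at a mean of 1.23 RPKM, and it holds no Hsp90ab1, Hspa1a, Hspa1b, Dnaja1 or Dnajb1. The shares thus describe the listed genes as deposited and do not rank the compartments.

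**Figure D1:**
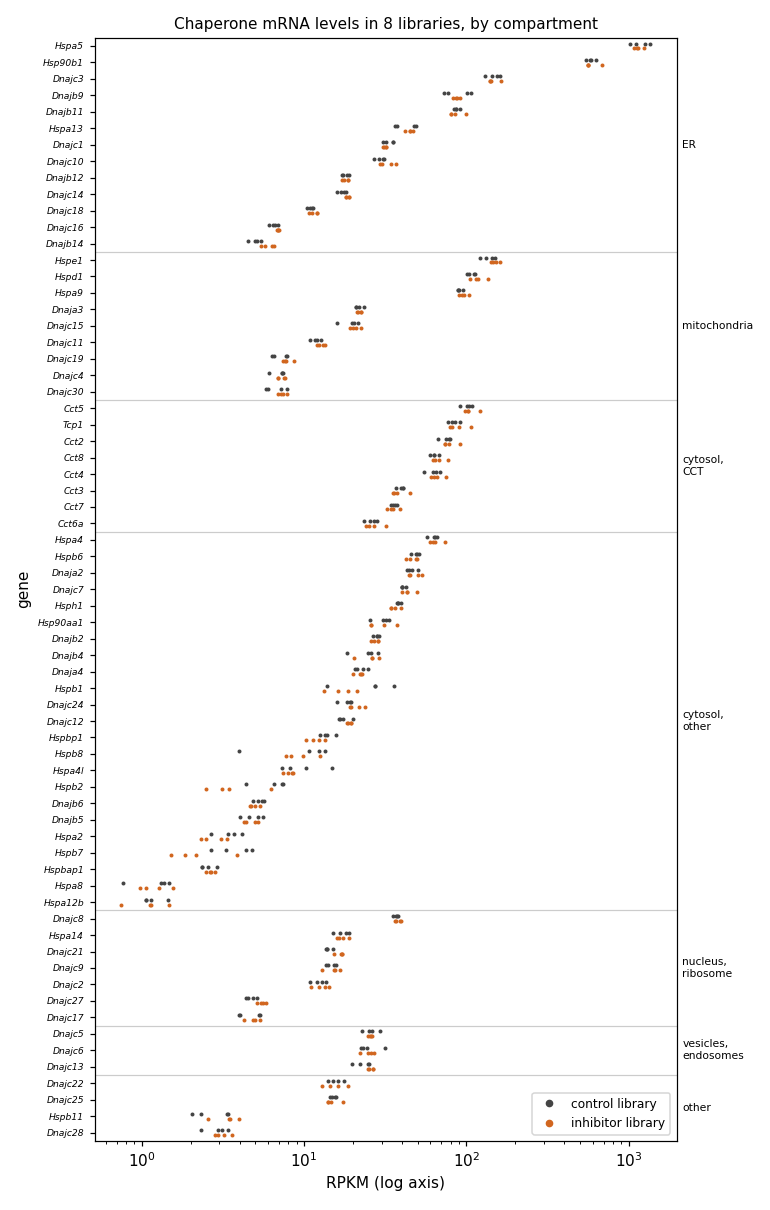
Level of each of the 67 chaperone mRNAs in RPKM (log axis), 1 point per library, grouped by compartment and sorted by mean. The ER genes Hspa5 and Hsp90b1 stand apart at the top, at 1023 to 1354 and 543 to 685 RPKM, and control (dark) and inhibitor (orange) points overlap for 65 of the 67 genes.

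Between inhibitor and control cells, 0 of the 67 members were called higher and 0 lower at an adjusted p under 0.05 by limma over 10688 tested genes, where 0% of all genes were called. limma-voom on the recovered reads called 0 as well. At an unadjusted p under 0.05 by limma stood 5 of the 67 members, with 8.98% of all tested genes. Of the 67, 3 (4.48%) were higher, against 5.52% of all tested genes, and 2 (2.99%) were lower, against 3.46%. limma-voom gave 7 members at that level (5 higher and 2 lower), beside 861 genes higher and 277 lower of all 10688 tested. The values of both groups stood apart without overlap for 2 members, both higher in inhibitor cells (2.99% of 67, with 3.70% of all genes), and for 0 members in the lower direction (1.61% of all genes), with 5.31% of all genes in either direction. These shares lie near the background. Of the 67 log2 fold changes (log2(RPKM + 1), inhibitor less control), 41 were positive, which is 61.2% against 54.3% of all genes. Their median was 0.042, beside 0.015 over all genes. This count moved with the choices made. It was 25 when control 1 and inhibitor 4 were both left out (median -0.022), 50 with limma-voom, and 56 after rescaling to TPM, which itself moved the median of all genes to 0.068.

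**Figure D2:**
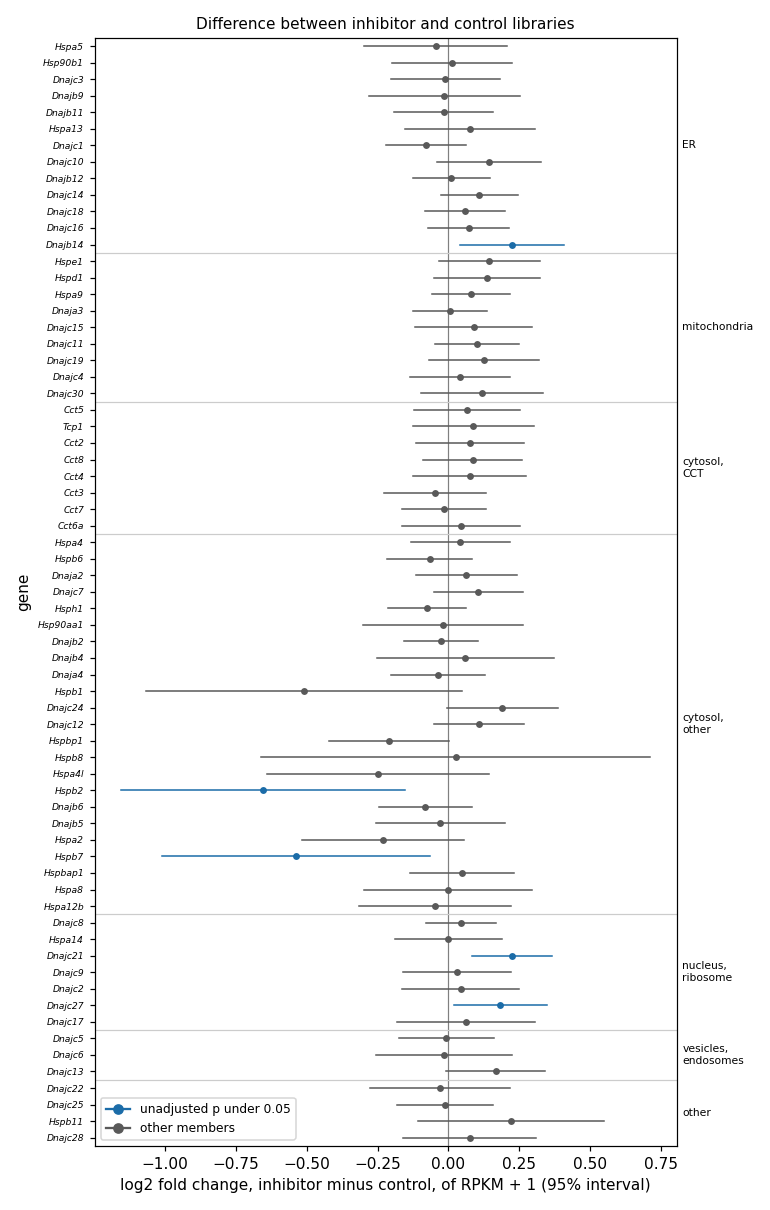
Log2 fold change of each member (inhibitor less control, from log2(RPKM + 1)) with its 95% interval from limma (4 libraries per group). Blue marks the 5 members with an unadjusted p under 0.05, none of which passed adjustment, and the widest intervals belong to the small heat shock genes Hspb1, Hspb2, Hspb7 and Hspb8.

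The data bounded what the comparison could show. The half-width of the 95% interval of a member's log2 fold change had a median of 0.19 and ran from 0.12 to 0.69, against a median of 0.20 over all genes. The ratio of the highest to the lowest library was between 1.11 and 3.41 over the members, with a median of 1.33, and the median over all genes was 1.37.

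In the ER, the leading chaperones varied more within the groups than between them. Hspa5, which encodes BiP, stood at 1354, 1109.9, 1260.0 and 1023 RPKM in controls 1 to 4 and at 1072, 1131, 1139 and 1237 RPKM in inhibitors 1 to 4. Both its highest and its lowest value were control libraries, and the groups overlapped. The log2 fold change was -0.045 ± 0.11 (SE), with a 95% interval from -0.30 to 0.21 (limma adjusted p = 0.873).

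Hsp90b1, which encodes GRP94, stood at 632, 574, 587 and 543 RPKM in controls 1 to 4 and at 557, 562, 559 and 685 RPKM in inhibitors 1 to 4. Inhibitors 1 to 3 lay within a few RPKM of each other, and inhibitor 4 lay above every other library. Its log2 fold change was 0.013 ± 0.094 (SE; limma adjusted p = 0.972). Dnajc3, which encodes the luminal co-chaperone P58IPK, stood at 162, 143, 154 and 131 RPKM in control and at 139, 141, 139.8 and 164 RPKM in inhibitor libraries. It had the shape of Hsp90b1, with inhibitor 4 and control 1 on top and control 4 at the bottom. Hspa5, Hsp90b1 and Dnajc3 all hold the ER stress response element shown above, but Hspa5 had inhibitor 4 below controls 1 and 3. Dnajb11, which was not among the genes with the element, also had inhibitor 4 and control 1 on top. A link between the element and these levels was not tested. Within a library, Hspa5 exceeded Hsp90b1 by a ratio that stayed between 1.81 and 2.15, and exceeded Dnajc3 by 7.53 to 8.37.

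**Figure D3:**
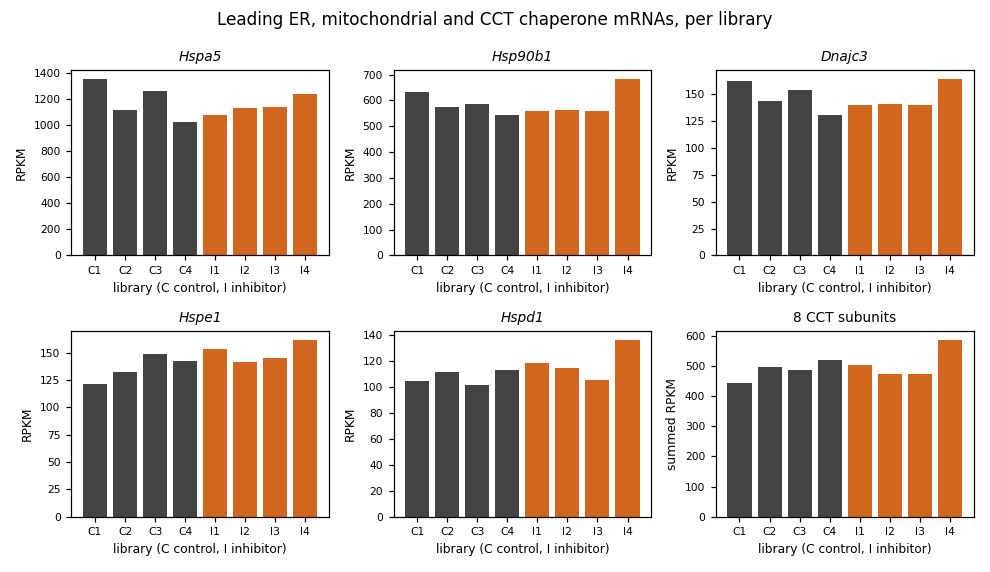
RPKM per library of the leading ER genes (Hspa5, Hsp90b1, Dnajc3) and mitochondrial genes (Hspe1, Hspd1), and the summed RPKM of the 8 CCT subunits, with bars from 0. Control libraries (C1 to C4) are dark and inhibitor libraries (I1 to I4) orange. Inhibitor 4 is the highest bar in all panels but that of Hspa5, where control 1 is highest.

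The ER J-domain proteins numbered 10, and their summed level averaged 443 ± 28.5 RPKM in controls against 444 ± 25.4 RPKM with the inhibitors (SD, n = 4). Dnajb9, a co-chaperone strongly induced by ER stress, averaged 89.1 ± 16.9 RPKM in controls against 87.1 ± 3.45 RPKM with the inhibitors (SD, n = 4). Its spread lay in the controls, with 107 and 100.3 RPKM in controls 1 and 3 and 72.5 and 77.02 RPKM in controls 2 and 4. Dnajb11, which works with BiP on nascent chains, was at 86.9 ± 3.18 and 86.2 ± 9.35 RPKM (SD, n = 4). Dnajc10, a J-domain protein that also reduces disulfide bonds, was at 29.4 ± 1.91 and 32.7 ± 3.37 RPKM (SD, n = 4; log2 fold change 0.14 ± 0.082 (SE), limma adjusted p = 0.580).

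Dnajb14 was the ER member with the smallest p. It encodes a J-domain protein anchored in the ER membrane with its J domain facing the cytosol. It stood at 4.98, 5.11, 4.48 and 5.39 RPKM in controls 1 to 4 and at 6.35, 5.41, 6.54 and 5.73 RPKM in inhibitors 1 to 4. Every inhibitor library was above every control library, although inhibitor 2 and control 4 differed by little. The log2 fold change was 0.23 ± 0.082 (SE), from 200 to 315 reads per library (limma unadjusted p = 0.0208, adjusted p = 0.541). Its close relative Dnajb12, of the same membrane topology, was at 17.9 ± 0.882 and 18.03 ± 0.808 RPKM (SD, n = 4; log2 fold change 0.010 ± 0.061 (SE)). Over the 13 ER genes, 8 log2 fold changes were positive and 5 negative, with a median of 0.013.

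In mitochondria all 9 members had a positive log2 fold change, with a median of 0.0996 and none past the threshold. Hspe1 and Hspd1, the lid and the barrel of the mitochondrial chaperonin, led in level. Hspe1 stood at 121, 132, 149 and 143 RPKM in controls 1 to 4 and at 153, 141, 145 and 162 RPKM in inhibitors 1 to 4. Hspd1 stood at 104, 111, 101 and 113 RPKM in control and at 118, 114, 105 and 136 RPKM in inhibitor libraries. For both, inhibitor 4 was the highest library and the groups overlapped.

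The log2 fold changes of the chaperonin pair were nearly equal, 0.14 ± 0.079 (SE) for Hspe1 and 0.14 ± 0.083 (SE) for Hspd1 (limma adjusted p = 0.577 and 0.592). When control 1 and inhibitor 4 were both left out they were 0.054 for Hspe1 and 0.054 for Hspd1, and Hspd1 was at 0.068 without inhibitor 4 alone. The genes share a promoter region, shown above, yet the ratio of Hspe1 to Hspd1 within a library ranged from 1.16 in control 1 to 1.47 in control 3. RefSeq names 20 pseudogenes of Hspd1 and 1 of Hspe1, so reads of Hspd1 could be lost to copies. Hspa9, the mitochondrial HSP70 that drives import, averaged 90.9 ± 3.04 RPKM in controls against 96.1 ± 5.79 RPKM with the inhibitors (SD, n = 4; log2 fold change 0.078 ± 0.062 (SE), limma adjusted p = 0.655, and 0.040 when both libraries were left out).

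The 6 mitochondrial J-domain proteins were low beside their HSP70. Dnaja3, the J-domain partner of Hspa9 in the matrix, was at 21.7 ± 1.13 and 21.8 ± 0.684 RPKM (SD, n = 4). Dnajc15 and Dnajc19, J-domain proteins of the import motor at the inner membrane, were at 19.4 ± 2.39 and 20.6 ± 1.34 RPKM and at 7.11 ± 0.793 and 7.82 ± 0.552 RPKM (SD, n = 4). Dnajc11, Dnajc4 and Dnajc30 had means over the 8 libraries of 12.3, 7.15 and 7.04 RPKM. Control 1 was the lowest library for 6 of the 9 mitochondrial genes, and control 1 was also the lowest library for 28.2% of all tested genes. With both control 1 and inhibitor 4 left out, 7 of the 9 log2 fold changes were positive, with a median of 0.054. With median-of-ratios scaling 8 of 9 were positive.

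The 8 subunits of the CCT ring, which stand at equal number in the assembled ring, spanned a several-fold range of mRNA levels. The mean over 8 libraries was 103 RPKM for Cct5, 86.4 for Tcp1, 76.9 for Cct2, 65.5 for Cct8, 64.5 for Cct4, 38.8 for Cct3, 35.5 for Cct7 and 26.5 RPKM for Cct6a. Cct8 and Cct4 changed places in controls 2 and 4 and in inhibitor 3, while the other subunits kept this order in each of the 8 libraries. The ratio of Cct5 to Cct6a was between 3.72 and 4.22 in every library. RefSeq names 14 pseudogenes of Cct6a, 4 of Cct3 and 3 each of Cct7 and Cct8. It names 1 of Cct5, 1 of Tcp1 and none of Cct2 or Cct4. Whether reads were lost to such copies was not tested.

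The summed level of the 8 subunits was 444, 498, 486 and 518 RPKM in controls 1 to 4 and 503, 472, 472 and 587 RPKM in inhibitors 1 to 4. Inhibitor 4 was the highest library for 8 of the 8 subunits, whereas it was highest for 24.1% of all tested genes. Control 1 was the lowest for 6 of them, and inhibitor 3 for Cct3 and Cct7.

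Between the groups, 6 of the 8 CCT log2 fold changes were positive, with a median of 0.070 and a range from -0.047 ± 0.081 (SE) for Cct3 to 0.088 ± 0.096 (SE) for Tcp1 (limma adjusted p = 0.824 and 0.733). When control 1 and inhibitor 4 were both left out, 0 of the 8 were positive and the median was -0.050. Inhibitor 4 was the highest library for all of these genes, so leaving it out lowers their values by construction. With the rescaling to TPM, 8 of 8 were positive. The direction of the CCT genes thus differed between these choices, and no subunit passed the threshold under any of them.

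**Figure D4:**
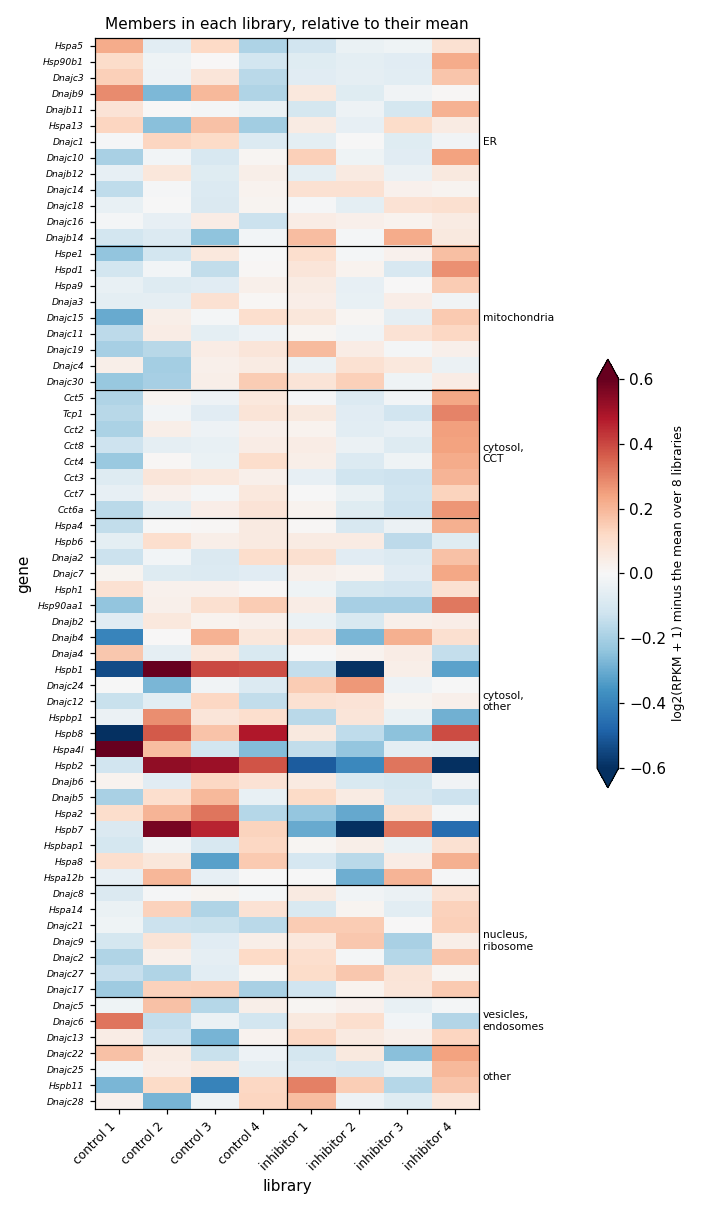
Each member's log2(RPKM + 1) in each of the 8 libraries minus its mean over all libraries (red higher, blue lower, colours end at 0.6 in either direction), ordered by compartment, with a line between control and inhibitor libraries. The CCT block is red in inhibitor 4, where 8 of 8 subunits were highest, and the small heat shock genes Hspb1, Hspb2 and Hspb7 are red in controls 2 to 4.

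Inhibitor 4 was the highest library for 32 of the 67 members (47.8%, against 24.1% of all genes), and control 1 the lowest for 24 (35.8%, against 28.2%). These are the libraries that stood apart in their cell markers. The part of cell composition in the chaperone levels was not tested.

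Apart from CCT, 23 genes of the cytosol were listed, and their summed level averaged 466 ± 25.1 RPKM in controls against 455 ± 21.6 RPKM with the inhibitors (SD, n = 4). Over all 31 cytosolic genes 14 log2 fold changes were positive, and 4 were when control 1 and inhibitor 4 were both left out. Hspa4, a member of the HSP110 branch that recharges HSP70 with ATP, was the most abundant, at 62.6 ± 3.77 and 64.7 ± 6.29 RPKM (SD, n = 4). Its relative Hsph1, whose promoter holds a triplet heat shock element, stood at 39.6, 37.9, 37.9 and 37.3 RPKM in controls 1 to 4 and at 36.5, 34.5, 34.2 and 39.7 RPKM in inhibitors 1 to 4. The other relative, Hspa4l, was at 14.9 RPKM in control 1 and at 7.26 to 10.3 RPKM in the other 7 libraries.

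Hspa8, the constitutive HSP70 known as one of the most abundant proteins of the cytosol, was listed at 1.37, 1.32, 0.763 and 1.46 RPKM in controls 1 to 4 and at 1.06, 0.979, 1.28 and 1.56 RPKM in inhibitors 1 to 4. That is 35 to 78 reads per library, and a rank of 10556 of 10692. RefSeq names 33 pseudogenes of Hspa8, the most of any member, so these values are uncertain as levels of the gene, and the part of reads lost to copies was not tested. Hsp90aa1, the inducible cytosolic HSP90, has 16 named pseudogenes and was at 30.3 ± 3.53 and 30.1 ± 5.46 RPKM (SD, n = 4; log2 fold change -0.019 ± 0.13 (SE)). Its log2 fold change was -0.21 when control 1 and inhibitor 4 were both left out (limma unadjusted p = 0.0310, adjusted p = 0.277). Control 1 was its lowest library and inhibitor 4 its highest, so leaving out both lowers the value by construction. Hspa2, an HSP70 best known from testis, was at 3.48 ± 0.625 and 2.81 ± 0.490 RPKM (SD, n = 4; log2 fold change -0.23 ± 0.13 (SE), limma adjusted p = 0.577).

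The cytosolic J-domain proteins showed no common direction, with 5 positive and 4 negative among 9. Dnaja2, a general partner of HSP70, was at 45.99 ± 3.39 and 48.1 ± 4.36 RPKM (SD, n = 4). Dnajc7, which binds both HSP70 and HSP90, was at 40.7 ± 1.34 and 43.98 ± 4.06 RPKM (SD, n = 4). Dnajc24, which serves in the making of diphthamide on elongation factor 2, stood at 19.5, 15.96, 19.2 and 18.4 RPKM in controls and at 21.8, 23.6, 19.1 and 19.5 RPKM in inhibitors (log2 fold change 0.19 ± 0.088 (SE), limma adjusted p = 0.554). Hspbp1, an exchange factor of HSP70, was at 13.9 ± 1.38 and 11.9 ± 1.38 RPKM (SD, n = 4; log2 fold change -0.21 ± 0.095 (SE), limma adjusted p = 0.550).

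Among the small heat shock genes, Hspb2, Hspb7 and Hspb1 had the largest log2 fold changes of the 67 members in size, and Hspb8 the widest spread over libraries. Of the 5 listed, 4 had a negative log2 fold change. Hspb2, known from muscle, stood at 4.38, 7.43, 7.31 and 6.56 RPKM in controls 1 to 4 and at 3.12, 3.46, 6.27 and 2.48 RPKM in inhibitors 1 to 4. Controls 2 to 4 lay above all inhibitor libraries, while inhibitor 3 lay above control 1. The log2 fold change was -0.65 ± 0.22 (SE), from 35 to 107 reads per library (limma unadjusted p = 0.0156, adjusted p = 0.541). Hspb7, also of muscle, stood at 2.68, 4.79, 4.36 and 3.28 RPKM in controls 1 to 4 and at 2.16, 1.51, 3.87 and 1.84 RPKM in inhibitors 1 to 4. Inhibitors 1, 2 and 4 lay below every control, and inhibitor 3 lay above controls 1 and 4 (log2 fold change -0.54 ± 0.21 (SE), limma unadjusted p = 0.0302, adjusted p = 0.541).

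Hspb1, which encodes HSP27 and protects actin filaments, stood at 13.8, 35.9, 27.3 and 27.2 RPKM in controls 1 to 4 and at 18.5, 13.3, 21.1 and 16.2 RPKM in inhibitors 1 to 4. Control 1 lay with the inhibitor libraries. Its log2 fold change was -0.51 ± 0.25 (SE; limma adjusted p = 0.562). It was -0.75 when control 1 and inhibitor 4 were both left out, -0.77 without control 1 alone, -0.34 without control 2 and -0.40 without inhibitor 2. Hspb8, a partner of the autophagy factor BAG3, was at 3.95 RPKM in control 1 and at 7.74 to 13.5 RPKM in the other libraries. Hspb6, a relative known from smooth muscle, was steady at 48.6 ± 2.27 and 46.5 ± 3.32 RPKM (SD, n = 4).

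Cryab, which encodes alpha-B-crystallin, is a small heat shock protein by family although its symbol lies outside the rule. It stood at 55.5, 92.7, 67.9 and 59.3 RPKM in controls 1 to 4 and at 39.3, 26.8, 61.3 and 37.4 RPKM in inhibitors 1 to 4, with inhibitor 3 the only inhibitor library inside the range of the controls. The log2 fold change was -0.76 ± 0.23 (SE; limma unadjusted p = 0.00873, adjusted p = 0.541). In mammals Cryab and Hspb2 are neighbouring genes.

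Markers of other cell types are given beside these genes. Of 7 mesenchymal and stellate markers 5 were listed, and none of these was near 0. Their summed level was 1507 to 3226 RPKM in control and 1642 to 2675 RPKM in inhibitor libraries, lowest in control 1 and inhibitor 2. Acta2, the actin of smooth muscle and activated stellate cells, stood at 651, 1166, 1171 and 1034 RPKM in controls and at 716, 504, 1092 and 867 RPKM in inhibitors. Hspb7 and Acta2 both had inhibitor 2 as the lowest library and inhibitor 3 as the highest inhibitor library. The other listed markers differed from this. Col1a1, Pdgfrb and Dcn had control 1 as the lowest library and inhibitor 4 as the highest inhibitor library. Col3a1 was lowest in control 1, with inhibitor 3 the highest inhibitor library. The log2 fold changes of the 5 markers differed in direction, at -0.36 for Acta2, -0.18 for Col1a1, -0.073 for Col3a1, 0.0092 for Pdgfrb and 0.31 for Dcn. Control 1 had the lowest marker sum, and of the controls it was the lowest for Hspb1, Hspb2, Hspb6, Hspb7, Hspb8 and Cryab. Its Hspb2 level lay above those of inhibitors 1, 2 and 4, and its Hspb1 level below those of inhibitors 1, 3 and 4. Plvap, the 1 listed of 4 endothelial markers, was at 2.04 to 7.17 RPKM in control and 0.702 to 3.54 RPKM in inhibitor libraries (log2 fold change -0.95). Its highest inhibitor library was inhibitor 3, as for Hspb2, Hspb7 and Cryab. Its highest control was control 1 (7.17 RPKM), which was the lowest control for Hspb2, Hspb7 and Cryab. The delta-cell markers Sst, Hhex and Rbp4 had log2 fold changes of -0.51, -0.14 and -0.057. The part of any of these cell types in the small heat shock levels was not tested.

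**Figure D5:**
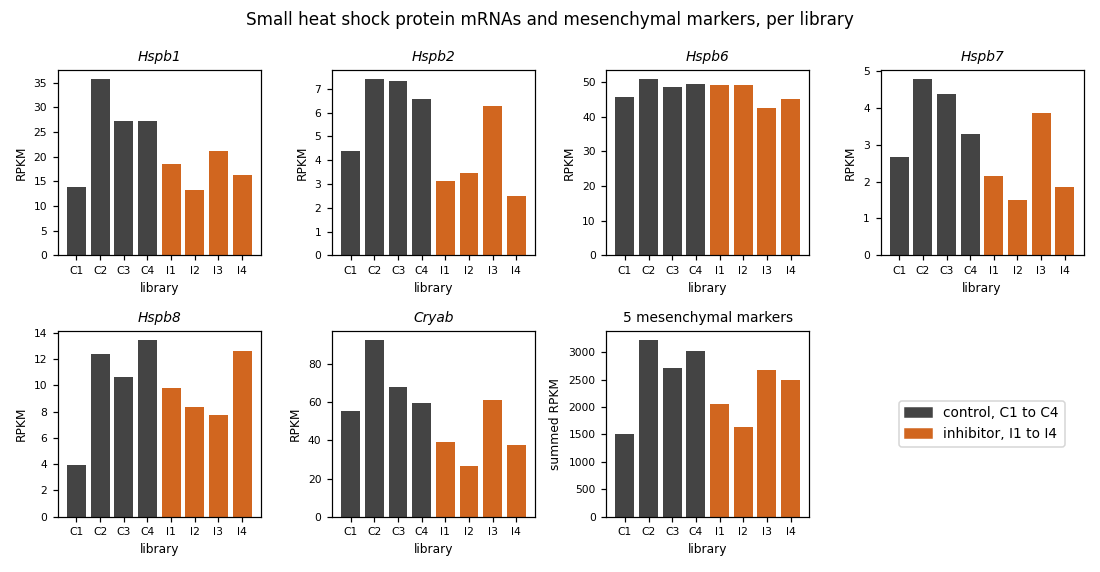
RPKM per library of the 5 listed small heat shock genes and of Cryab, and the summed RPKM of 5 mesenchymal markers, with bars from 0. Hspb2, Hspb7 and Cryab are lower in inhibitors 1, 2 and 4 than in controls 2 to 4, and Hspb6 stays between 42.4 and 51.03 RPKM.

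In the nucleus and at the ribosome all 7 members had a positive log2 fold change, with a median of 0.044, against 54.3% positive over all genes. Hspa14 was counted as positive at 0.00019 ± 0.085 (SE). With median-of-ratios scaling 6 of the 7 were positive, and 5 were with library weights or without inhibitor 4. Dnajc21, which acts in the maturation of the large ribosomal subunit, had the smallest p of all members. It stood at 14.998, 13.9, 13.8 and 13.6 RPKM in controls 1 to 4 and at 17.1, 17.1, 15.3 and 16.98 RPKM in inhibitors 1 to 4. The groups did not overlap, and inhibitor 3 lay closest to the controls. The log2 fold change was 0.22 ± 0.063 (SE), with a 95% interval from 0.085 to 0.36 before any adjustment (limma unadjusted p = 0.00515, adjusted p = 0.541).

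Dnajc27, a small GTPase with a J domain, stood at 4.52, 4.35, 4.81 and 5.12 RPKM in controls and at 5.55, 5.79, 5.41 and 5.11 RPKM in inhibitors, where control 4 and inhibitor 4 nearly coincide (log2 fold change 0.18 ± 0.073 (SE), limma unadjusted p = 0.0323, adjusted p = 0.541). Dnajc2 and Hspa14, which form the ribosome-associated complex that meets nascent chains, were at 12.4 ± 1.18 and 12.8 ± 1.39 RPKM and at 17.2 ± 1.76 and 17.2 ± 1.33 RPKM (SD, n = 4). Dnajc8, a splicing-associated protein, was the most abundant at 36.8 ± 1.15 and 37.9 ± 1.60 RPKM (SD, n = 4). Without both control 1 and inhibitor 4, 3 of the 7 log2 fold changes were positive (median -0.0070), those of Dnajc21 and Dnajc27 among them.

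On vesicles and endosomes, Dnajc5, the cysteine string protein that guards the exocytosis machinery of secretory granules, was at 25.9 ± 2.66 and 25.6 ± 0.558 RPKM (SD, n = 4). Dnajc6, which encodes auxilin, the partner of HSP70 in stripping clathrin coats, was at 31.4 RPKM in control 1 and at 22.01 to 26.8 RPKM in the other 7 libraries. Dnajc13, an endosomal J-domain protein, stood at 24.99, 22.2, 19.8 and 24.6 RPKM in controls and at 26.5, 25.2, 24.7 and 26.5 RPKM in inhibitors. Control 1 lay between the inhibitor values (log2 fold change 0.17 ± 0.078 (SE), limma adjusted p = 0.554).

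Partners of these chaperones that the rule leaves out were taken from a list of 65 genes, of which 62 were tested. Of the 62 log2 fold changes, 30 were above 0 and 32 below, with a median of -0.0090. By limma 0 were called in either direction, and at an unadjusted p under 0.05 there were 1 higher (1.61%, against 5.52% of all tested genes) and 6 lower (9.68%, against 3.46%). Sgta, a co-chaperone of HSP70 that sorts tail-anchored membrane proteins, stood at 29.4, 30.97, 30.8 and 28.8 RPKM in controls and at 24.3, 27.7, 27.02 and 24.3 RPKM in inhibitors, without overlap (log2 fold change -0.21 ± 0.064 (SE), limma adjusted p = 0.541). Pdcl, a phosducin-like protein that works with CCT, was at 2.92 ± 0.180 and 3.43 ± 0.187 RPKM (SD, n = 4; log2 fold change 0.18 ± 0.074 (SE), limma adjusted p = 0.541). Txndc9, another CCT-binding protein, was at 39.5 ± 2.34 and 44.8 ± 4.31 RPKM (SD, n = 4; log2 fold change 0.17 ± 0.077 (SE), limma adjusted p = 0.550). Hsf1, which encodes heat shock factor 1 and was picked after its values were seen, was at 15.3 ± 1.04 and 13.3 ± 1.27 RPKM (SD, n = 4; log2 fold change -0.19 ± 0.080 (SE), limma adjusted p = 0.545).

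In the authors' deposited table, 4 members had a p under 0.05, and the table lists 7.49% of all its genes at that level. The p in the authors' deposited table was 0.0167 for Hspb2, 0.0188 for Dnajc21 and for Hspb1, and 0.0261 for Hspb7. Its adjusted p for these lay between 0.430 and 0.464, so the authors' deposited table called 0 members at an adjusted p under 0.05.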

How the data were processed

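Per the file headers, the deposited table held the authors' RPKM in 1 column per library. Build rn6, HTSeq, HISAT2 2.1.0, RSEM 1.3.0 and STAR 2.5.3a are named in the submitters' processing notes, without their roles. No source used here states the step that gave RPKM, the annotation, strand handling or the listing rule. In each group every listed gene had a mean of at least 1 RPKM, so lower genes were not analysed here. The authors' fold (a ratio), log2 fold change and p-values, deposited in the same table, are the authors' own, by a method that no source here names, and only the p-values are quoted.

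In R 4.3.3, limma 3.58.1 was fitted to log2(RPKM + 1) (group only, intensity trend, two-sided, Benjamini-Hochberg at 0.05) for 10688 genes with at least 1 RPKM in at least 4 libraries. All 67 members passed. This scale understates changes of low genes. For each gene the lowest set of integers matching the ratios between its 8 values (tolerance 0.0001) was taken as its reads, which succeeded for 10692 of 10692 genes. They served for depth and limma-voom, and the scripts were tested on simulated data.

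Named were the 3 most abundant members per compartment, the 5 of smallest p in each direction, members without overlap, the HSP70 and HSP90 paralogs, the CCT subunits and the 2 partners of smallest p in each direction. Other members were named for their role after their values were seen. Members and lists were chosen with earlier results of these data known.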

Additional observations from a re-analysis of the deposited data

Results flagged for a closer look

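Among 60 groups of 4 libraries (30 members in control and inhibitor), 3 held a library whose gap to its neighbour exceeded Dixon's critical share of the range at the 95% level, and chance gives about 1 in 20 groups. Hsp90b1 was at 685 RPKM in inhibitor 4, with 557 to 562 RPKM in the other inhibitor libraries. Dnajc3 was at 164 RPKM in inhibitor 4, with 139 to 141 RPKM in the others. Dnajc21 was at 15.3 RPKM in inhibitor 3, with 16.98 to 17.1 RPKM in the others.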

How the results depend on the processing

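Under all 16 alternatives, 0 members and 0 genes overall were called at an adjusted p under 0.05. The members at an unadjusted p under 0.05 numbered 5, and were 10 with library weights, 11 without both control 1 and inhibitor 4, and between 2 and 8 with each library left out in turn (2 without inhibitor 1, 3 without control 2, 8 without control 1 or control 4). The same-numbered libraries' deviations correlated at 0.14, -0.27, 0.32 and 0.45, so the numbers were not taken as pairs. With the number as a replicate block 6 members were at an unadjusted p under 0.05, beside 642 genes higher and 467 lower of all 10688 tested. Of the 30 named members, 14 had the same direction in all alternatives, among them the 5 of smallest p in each direction, Hspa9, Hspe1 and Hspd1. The 5 in each direction were picked by p in these same data, so a kept direction is no separate support for them. The rest of the 30 turned in at least 1 alternative, and the cause was not tested. With TPM they became 0.0099 for Hspa5, 0.044 for Dnajc3, 0.0064 for Cct3, 0.038 for Cct7, 0.035 for Hsp90aa1, 0.041 for Hspa8, 0.046 for Dnajc5 and 0.037 for Dnajc6. With limma-voom they became 0.011 for Dnajc3, 0.0065 for Cct7, 0.0027 for Hsp90aa1, 0.034 for Hspa8, 0.013 for Dnajc5 and 0.0052 for Dnajc6. With library weights they became -0.00012 for Hsp90b1, -0.0020 for Cct5, -0.095 for Hspa14 and 0.11 for Dnajc6. Median-of-ratios scaling gave -0.012 for Hsp90b1 and -0.023 for Hspa14, and a pseudocount of 0.1 gave 0.0078 for Hspa8. With control 1 and inhibitor 4 both left out they became -0.021 for Hsp90b1, -0.051 for Cct5, -0.037 for Tcp1, -0.043 for Cct2, -0.0066 for Cct8, -0.049 for Cct4, -0.081 for Cct6a, -0.060 for Hspa14 and 0.14 for Dnajc6. Leaving out 1 library at a time gave ranges of -0.11 to 0.021 for Hspa5, -0.060 to 0.052 for Hsp90b1, -0.068 to 0.035 for Dnajc3, -0.0018 to 0.10 for Cct5, -0.035 to 0.094 for Cct6a, -0.062 to 0.022 for Cct7, -0.13 to 0.044 for Hsp90aa1, -0.11 to 0.053 for Hspa8, -0.060 to 0.046 for Hspa14, -0.066 to 0.050 for Dnajc5 and -0.066 to 0.087 for Dnajc6. Depth limits Hspa8 and Hspb2 most, with as few as 35 reads in a library.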
